A study of Drosophila melanogaster with 8 samples.

Results

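The unfolded protein and integrated stress response was followed through 7 genes, taken from the count tables by exact symbol: crc, Xbp1, Hsc70-3, Gp93, Pdi, CG10420 and asparagine-synthetase. They are 7 of the 14161 genes in the tables, and all 7 were among the 8029 genes tested. Their choice was made with earlier results of these data known. RNA was sequenced from Drosophila S2R+ cells, a cultured line with features of blood cells, transfected with Actin:dCas9-VPR, a Cas9 that does not cut DNA joined to a transcriptional activator and driven by an actin promoter. The 4 groups of 2 libraries received 5 pooled guides upstream of twi (Twist guides), 5 upstream of sna (Snail guides), both pools together, or control guides. The sample labels give the control guides as aimed at the promoter of a luciferase reporter, whereas the protocol calls them non-targeting. All 4 groups received dCas9-VPR and guides, so the design holds no untransfected cells, and the sources used here do not give the share of cells that took up the plasmids.

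When unfolded proteins build up in the endoplasmic reticulum (ER), the sensor Ire1 splices Xbp1 mRNA so that it encodes an active bZIP transcription factor, which raises chaperone and secretory genes. A second branch, shared with amino acid shortage, runs through the kinases PEK and Gcn2, which phosphorylate eIF2alpha. General translation then falls while crc, the fly ATF4, is translated more and raises amino acid and stress genes. Spliced and unspliced Xbp1 are summed in a count per gene, and translation of crc is not seen in RNA, so the values below are transcript levels of these genes and not the activity of the pathway.

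Total counts ranged from 10752993 to 13351166 per library. twi had 345 and 384 counts under Twist guides, 0 and 0 under Snail guides, 164 and 137 under both pools, and 0 and 0 under control guides. sna had 0 and 1 counts under Twist guides, 1079 and 1218 under Snail guides, 1485 and 1320 under both pools, and 0 and 2 under control guides. Of the genes listed as markers of S2R+ cells, srp (127 to 176 CPM, counts scaled to library size with TMM factors) and Pxn (73.9 to 105 CPM) were expressed. Among the others, fz was at 6.93 to 10.4 CPM, Hml, eater and He stayed at or below 1.76 CPM, and NimC1 had no row. Of the genes listed for other cell types, Mef2 (muscle) was at 35.2 to 52.4 CPM and elav (neuron) at 7.09 to 8.82 CPM. The rest of those with a row stayed at or below 3.09 CPM. Replicates differed most in the control group. Set against counting error, the spread between replicates had a variance 6.93 times as large under Twist guides, 3.82 times under Snail guides, 3.68 times for both pools and 27.1 times for control guides. The log2 difference between replicates 1 and 2 also followed transcript length most in the control group. Its Spearman correlation with length across genes was -0.41 under control guides, 0.21 under Twist guides, -0.08 under Snail guides and 0.21 for both pools. Across the 7 genes, the log2 level of control replicate 1 minus that of control replicate 2 ran from -0.21 (CG10420) to 0.26 (Xbp1). The test pools the spread of all 4 groups, so p-values against control can be too small and those between activated groups too large. They measure only the spread between these samples, which the series calls biological replicates.

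crc and Xbp1, the transcription factors of the response, were abundant in all libraries. crc (FBgn0000370, chromosome 2L, 21310866 to 21319527 in BDGP6.54) was the 70th most abundant of the 8029 genes by CPM. Its level was 1789 and 1577 CPM under Twist guides, 2075 and 1985 under Snail guides, 1981 and 2041 under both pools, and 1612 and 1488 under control guides. The 4 libraries that received Snail guides lay above the 4 that did not. How many of all tested genes were so placed was not counted. Between pairs of groups, 31.5% to 59.7% of all tested genes did not overlap, depending on the pair. The tables also hold a row spelt Crc, taken here as calreticulin, so case was kept in matching. CG46314, which has no row in the tables used here, shares all 2515 of its annotated exon bases with crc on the same strand, and transcripts of the 2 genes cannot be told apart in these counts.

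Xbp1 (FBgn0021872, chromosome 2R, 21143545 to 21145750) stood at 1094 and 1012 CPM under Twist guides, 1152 and 1253 under Snail guides, 1171 and 1288 under both pools, and 1066 and 891 under control guides. Its order over the groups was again Snail guides and both pools above Twist guides and control, with the Snail and both-pools libraries overlapping each other and the Twist and control libraries overlapping each other. Its control libraries differed by 0.26 on the log2 scale, the widest control gap among the 7 genes.

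The ER chaperones did not share one pattern. Hsc70-3 (FBgn0001218, chromosome X, 11801696 to 11807117), the fly BiP, the Hsp70 of the ER lumen that also restrains the stress sensors, was at 1272 and 1116 CPM under Twist guides, 1234 and 1290 under Snail guides, 1458 and 1432 under both pools, and 1135 and 1105 under control guides. Both libraries with both pools exceeded the other 6 libraries, a placing not counted over all tested genes. Gp93 (FBgn0039562, chromosome 3R, 27948711 to 27952151), the Hsp90 of the ER, was at 810 and 738 CPM under Twist guides, 774 and 848 under Snail guides, 886 and 847 under both pools, and 739 and 643 under control guides. Its libraries with Snail guides or both pools lay above both control libraries, while those with Twist guides overlapped control by a narrow margin.

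Pdi and CG10420 showed no such order. Pdi (FBgn0286818, chromosome 3L, 15137738 to 15142840), a protein disulfide isomerase that forms and rearranges disulfide bonds, was at 644 and 633 CPM under Twist guides, 629 and 661 under Snail guides, 646 and 620 under both pools, and 677 and 633 under control guides. Its highest library was 1.09 times its lowest, the narrowest range of the 7 genes, and the groups overlapped. CG10420 (current symbol Sil1, FBgn0039296, chromosome 3R, 25233636 to 25235529), named for the Sil1 proteins that release ADP from BiP, was at 58.4 and 62.2 CPM under Twist guides, 57.2 and 52.3 under Snail guides, 57.3 and 60.9 under both pools, and 51.3 and 59.5 under control guides, so every group overlapped control.

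Asparagine-synthetase (current symbol AsnS, FBgn0270926, chromosome 3L, 21173118 to 21174973), which makes asparagine from aspartate and is an ATF4 target in mammals, had another order. It was at 118 and 123 CPM under Twist guides, 148 and 135.4 under Snail guides, 114 and 105 under both pools, and 134.5 and 133 under control guides. The 4 libraries that received Twist guides lay below the 4 that did not, a placing not counted over all tested genes. The gene lies within the span of chb on the same strand and shares 0 exon bases with it. Corrected for the longest annotated transcript, mean levels over all 8 libraries ran, from high to low, in the order crc (723 CPM per kb), Xbp1 (522), Hsc70-3 (394), Gp93 (277), Pdi (276), asparagine-synthetase (68.0) and CG10420 (31.3).

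**Figure D1:**
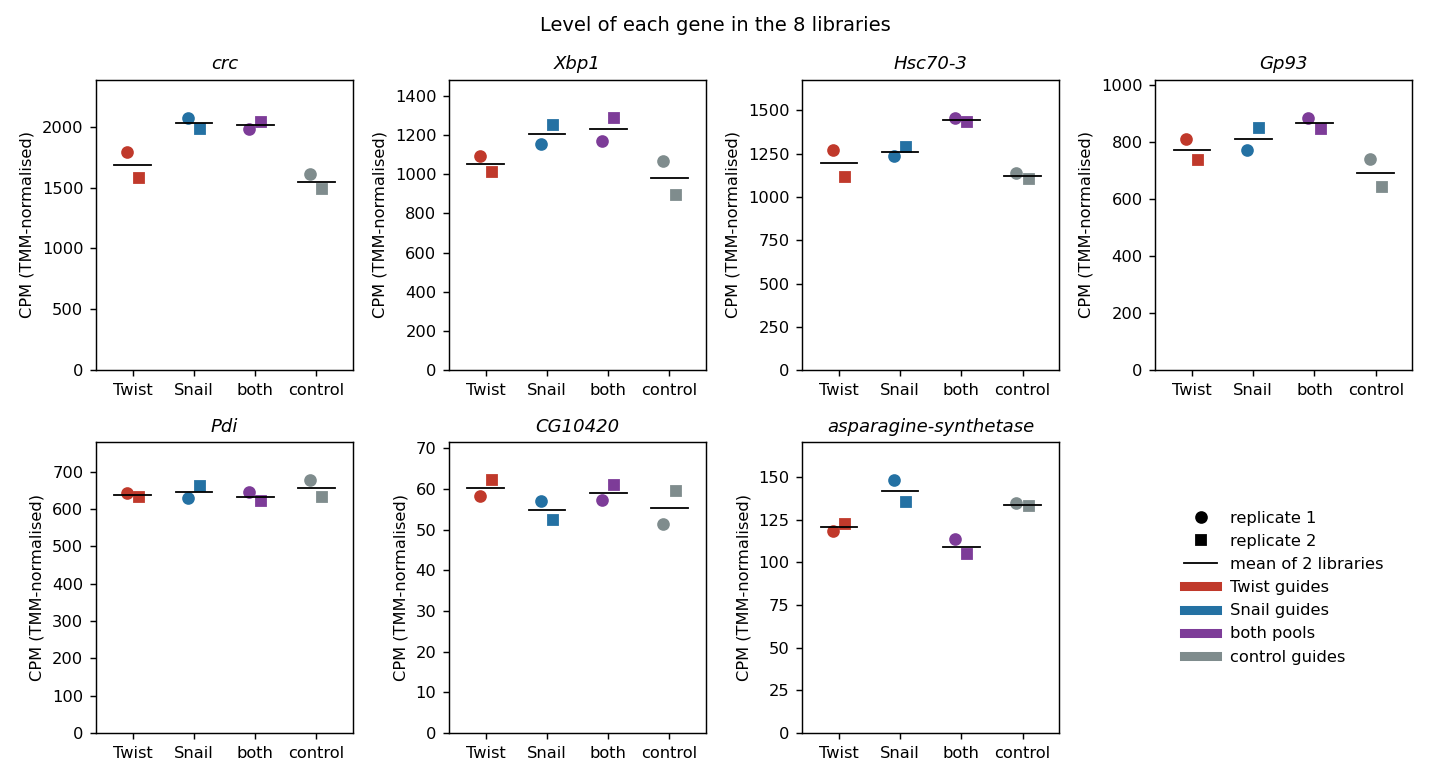
TMM-normalised CPM (y axis, from 0) of the 7 genes in the 2 libraries of each group (circles, replicate 1; squares, replicate 2; lines, means). crc stood at 1981 to 2075 CPM in the 4 libraries with Snail guides and at 1488 to 1789 CPM in the other 4, Pdi varied little, and asparagine-synthetase was lowest with both pools.

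The first comparison, of Twist guides with control guides, asks what changes when twi is activated. None of the 7 genes passed the test of edgeR's quasi-likelihood model or of DESeq2, where edgeR called 0.934% of all tested genes. At an unadjusted p under 0.05 there were 0 of 7, where 8.28% of all genes were. The log2 fold changes were small: crc 0.12 ± 0.09 (SE; adjusted p = 0.83, 95% interval -0.07 to 0.31), Gp93 0.16 ± 0.09 (adjusted p = 0.72) and CG10420 0.12 ± 0.10 (adjusted p = 0.84). Xbp1 stood at 0.11, Hsc70-3 at 0.09 and Pdi at -0.04. Only asparagine-synthetase had both Twist libraries on one side of both control libraries, averaging 120 ± 3.17 CPM with Twist guides and 134 ± 1.22 CPM with control guides (SD, n = 2 each), a log2 difference of -0.15 ± 0.08 (adjusted p = 0.67). Over all tested genes, 31.5% had groups that did not overlap in this comparison. In bulk RNA a change in fewer cells and a smaller change in every cell cannot be told apart, here and below.

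With Snail guides, compared with control to ask what changes when sna is activated, crc showed the widest difference. It averaged 2030 ± 63.7 CPM with Snail guides and 1550 ± 87.4 CPM with control guides, a log2 difference of 0.39 ± 0.09 (1.31-fold; 95% interval 0.20 to 0.58). Its adjusted p was 0.11, so it did not pass. None of the 7 genes did in edgeR, against 0.324% of all tested genes, although 3 had an unadjusted p under 0.05 (crc, Xbp1 and Gp93), where 14% of all genes did. DESeq2 called crc alone of the 7 (adjusted p = 0.0043), and its number over all genes is not given here. Xbp1 differed by 0.30 ± 0.10 (adjusted p = 0.23), Gp93 by 0.23 ± 0.09 (adjusted p = 0.30) and Hsc70-3 by 0.17 ± 0.09 (adjusted p = 0.38). These 4 genes and asparagine-synthetase (0.08, adjusted p = 0.65) had both Snail libraries above both control libraries, 5 of 7, where 21.5% of all tested genes did and 43.2% had groups apart in either direction. Pdi (-0.02) and CG10420 (-0.02) overlapped control.

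The values with Snail guides differed with the control library left out. A lone control library has no spread of its own, so the test takes its spread from the other groups, whose replicates differed less. Only log2 differences are therefore given for these fits. Without control replicate 1, crc stood at 0.45, Xbp1 at 0.43 and Gp93 at 0.34 above control. Without control replicate 2, crc stood at 0.33 and Xbp1 at 0.17.

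Both pools were compared with control guides to ask what changes when the 2 genes are activated together. Here 4 genes of the ER and ATF4 branches stood about equally far above control: crc at 0.38 ± 0.09 (adjusted p = 0.058), Hsc70-3 at 0.37 ± 0.09 (adjusted p = 0.055), Xbp1 at 0.33 ± 0.10 (adjusted p = 0.13) and Gp93 at 0.33 ± 0.09 (adjusted p = 0.11). On the linear scale these are 1.30-, 1.29-, 1.26- and 1.25-fold. Hsc70-3 averaged 1445 ± 18.2 CPM with both pools and 1120 ± 21.6 CPM with control guides (SD, n = 2 each). Asparagine-synthetase stood below control, at 109 ± 6.33 CPM with both pools and 134 ± 1.22 CPM with control guides (-0.29 ± 0.08, adjusted p = 0.094). Pdi was at -0.05 (95% interval -0.22 to 0.12) and CG10420 at 0.09 (-0.12 to 0.30). The median of the 7 genes was 0.33, where that of all tested genes was -0.01. Because the 7 were chosen with earlier results of these data known, the 2 medians are only a description.

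No gene of the 7 passed the threshold with both pools in edgeR, where 1.57% of all tested genes passed. At an unadjusted p under 0.05 there were 5 of 7, where 16.5% of all genes were, and the same 5 had groups that did not overlap, where 44.2% of all genes did. DESeq2 called crc (adjusted p = 0.0048) and Hsc70-3 (adjusted p = 0.0046), and its number over all genes is not given here. Fits without a control library again leave 1 control library with no spread of its own, so only log2 differences are given. Without control replicate 1 they were 0.43 for crc, 0.46 for Xbp1, 0.39 for Hsc70-3, 0.43 for Gp93 and -0.28 for asparagine-synthetase. Without control replicate 2 they were 0.32 for crc, 0.20 for Xbp1, 0.35 for Hsc70-3, 0.23 for Gp93 and -0.30 for asparagine-synthetase. With transcript length corrected, crc and Hsc70-3 were called (adjusted p = 0.032 each), again without a number over all genes here. The 3 comparisons with control share the control libraries, so their values are not independent of each other.

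**Figure D2:**
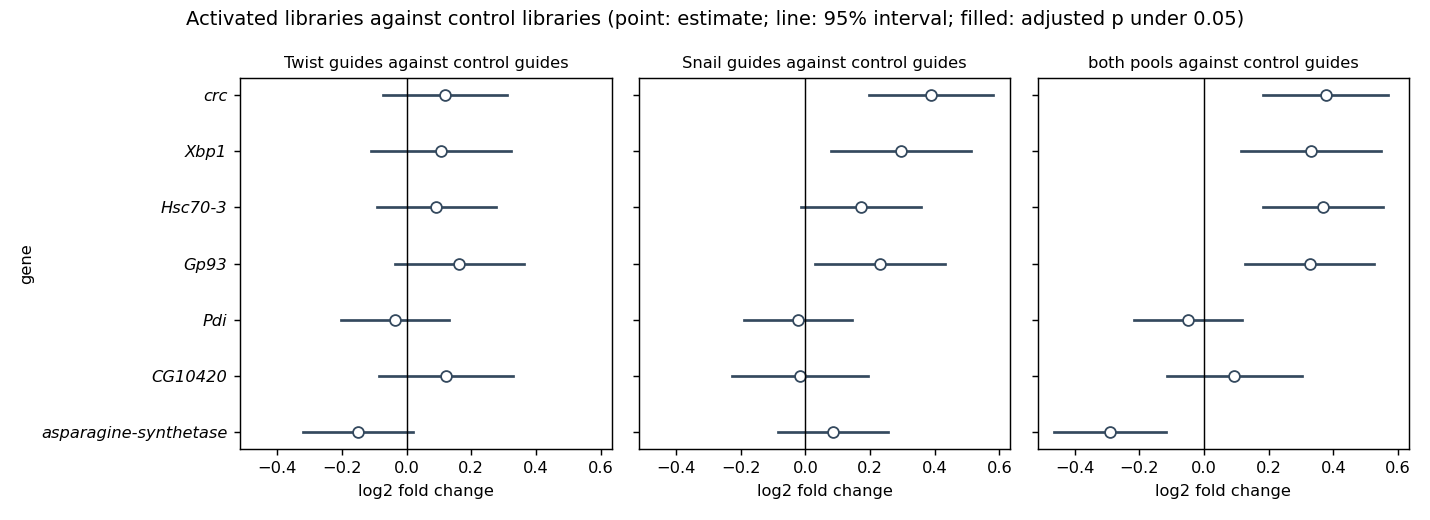
Log2 fold change (x axis) of the 7 genes (y axis) for Twist guides, Snail guides and both pools, each against control guides; points are estimates, lines 95% intervals, and a filled point would mark an adjusted p under 0.05. No point is filled, and with both pools the intervals of crc, Xbp1, Hsc70-3 and Gp93 lie above 0 and that of asparagine-synthetase below it.

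**Figure D3:**
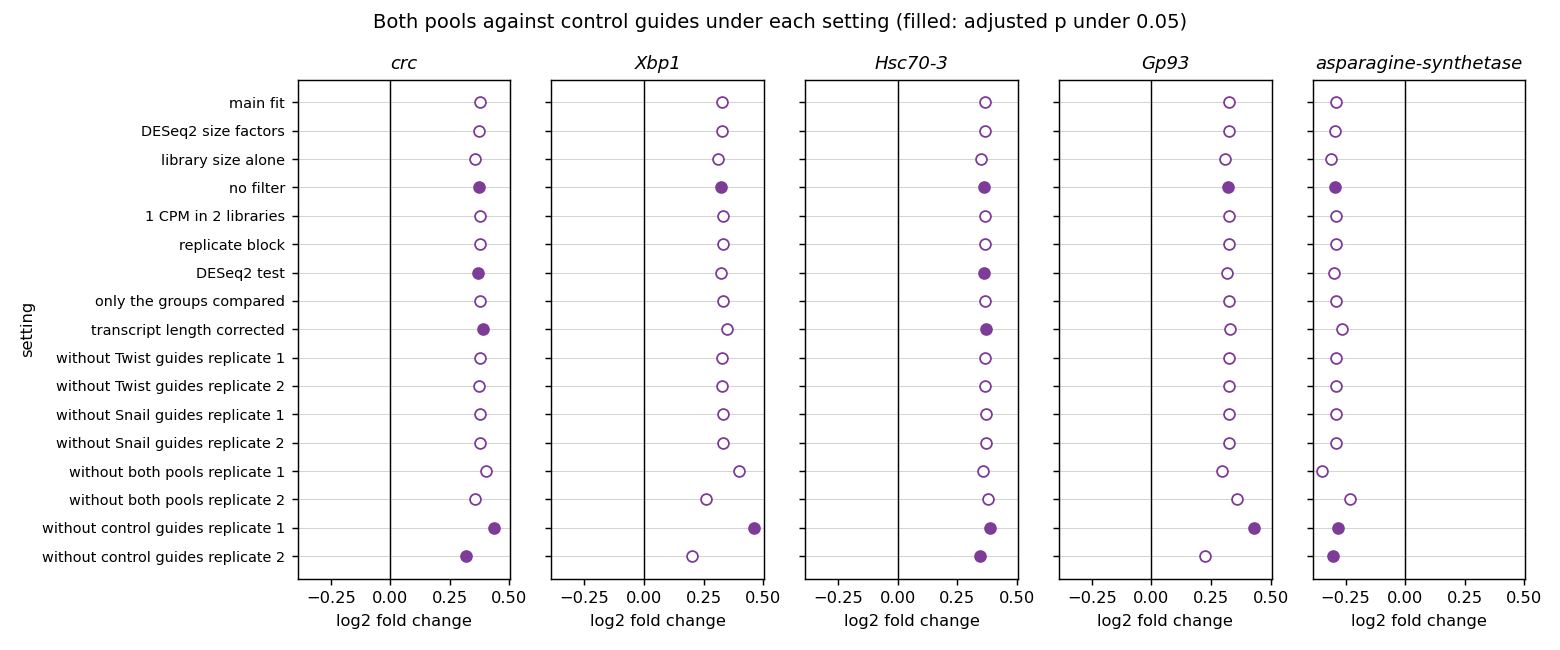
Log2 fold change (x axis) of 5 genes for both pools against control guides, under the reported fit and 16 other settings (y axis); filled points have an adjusted p under 0.05. No point crosses 0, and no point is filled in the reported fit. crc and Hsc70-3 are filled without a filter, by DESeq2 and with transcript length corrected. The number called over all genes in those settings is not given here. No gene is filled with DESeq2 size factors, library size alone, a minimum of 1 CPM, the replicate block or only the groups compared. In fits without 1 library, a group left with 1 library takes its spread from the other groups.

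The activated groups were then compared with each other, which needs no control library in the contrast. twi itself was lower with both pools than with Twist guides alone (log2 -1.05, adjusted p = 0.0071), so the level of twi RNA was not held constant in this contrast. With both pools, relative to Twist guides, crc was 0.26 ± 0.09 higher on the log2 scale (adjusted p = 0.16), Hsc70-3 0.27 ± 0.09 higher (adjusted p = 0.12), Xbp1 0.22 ± 0.10 higher (adjusted p = 0.26) and Gp93 0.16 ± 0.09 higher (adjusted p = 0.38). Asparagine-synthetase was at -0.14 ± 0.08 (adjusted p = 0.37), Pdi at -0.01 and CG10420 at -0.03. None of the 7 passed in edgeR or DESeq2, beside 1.05% of all tested genes in edgeR. At an unadjusted p under 0.05 there were 3 of 7, where 18.2% of all genes were. In 5 of 7 the groups did not overlap, where 58.6% of all genes were so placed. Leaving out control replicate 1 or 2, neither of which is in the contrast, brought the same 3 genes past the threshold: crc (adjusted p = 0.019 in each case), Hsc70-3 (0.014 in each case) and Xbp1 (0.039 in each case). Those fits called 975 and 974 of all genes, against 84 with every library.

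Adding Twist guides to Snail guides gave the only call among the 49 tests of the 7 genes. Asparagine-synthetase fell to 109 ± 6.33 CPM with both pools, against 142 ± 8.89 CPM with Snail guides (SD, n = 2 each), a log2 fold change of -0.38 ± 0.08 (0.771-fold; adjusted p = 0.046; lower in 2 of 2 libraries). That is 1 of 7 genes, beside 0.909% of all tested genes in either direction and 0.199% in this one. At an unadjusted p under 0.05 there were 2 of 7 (with Hsc70-3), where 18.4% of all genes were, and 3 of 7 had groups that did not overlap (with Hsc70-3 and CG10420), where 59.7% of all genes did. DESeq2 also called it and no other of the 7. The edgeR call held without either control library, in fits that called 1135 and 1129 of all genes against 73 with every library. It was lost with the replicate number as a block (adjusted p = 0.066) and without any one of the other 6. The adjusted p was 0.061 without either Twist library, 0.44 and 0.21 without the first or second Snail library, and 0.20 and 0.45 without the first or second library of both pools. Hsc70-3 stood 0.20 ± 0.09 above its level with Snail guides (adjusted p = 0.25), Gp93 was at 0.10 and CG10420 at 0.11, while crc (-0.01, 95% interval -0.21 to 0.18), Xbp1 (0.03) and Pdi (-0.03) lay near 0.

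Twist guides set directly against Snail guides gave lower values for crc (-0.27 ± 0.09, adjusted p = 0.28) and asparagine-synthetase (-0.23 ± 0.08, adjusted p = 0.29). Xbp1 was at -0.19 ± 0.10 (adjusted p = 0.46), Hsc70-3 at -0.08, Gp93 at -0.07, Pdi at -0.01 and CG10420 at 0.14. None passed in edgeR or DESeq2, beside 1.08% of all tested genes in edgeR. At an unadjusted p under 0.05 there were 2 of 7 (crc and asparagine-synthetase), where 11.9% of all genes were, and 4 of 7 had groups that did not overlap, where 51.9% of all genes did. Without control replicate 1 or 2, both were called (crc, adjusted p = 0.013 in each case; asparagine-synthetase, 0.030 in each case), in fits that called 858 and 850 of all genes against 87 with every library.

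**Figure D4:**
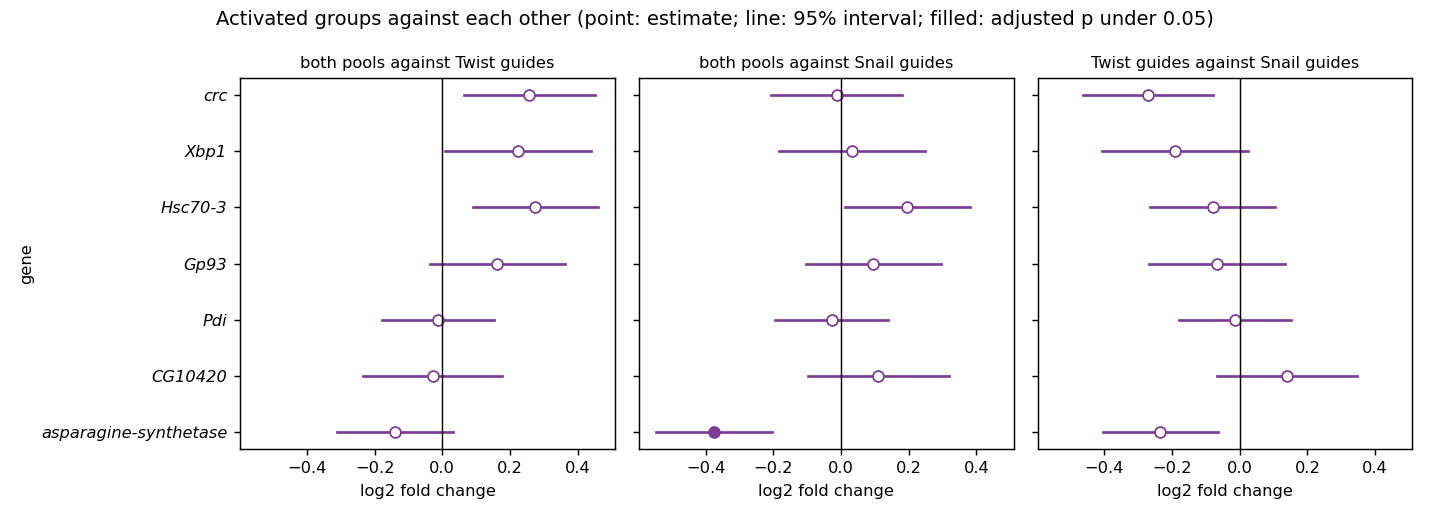
Log2 fold change (x axis) of the 7 genes (y axis) between activated groups: both pools against Twist guides, both pools against Snail guides, and Twist guides against Snail guides; points are estimates, lines 95% intervals, and the filled point has an adjusted p under 0.05. The filled point is asparagine-synthetase in both pools against Snail guides, at -0.38.

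Whether Snail guides act differently with and without Twist guides was tested as the non-additive term, again with less twi RNA in the cells given both pools. None of the 7 genes passed in edgeR or DESeq2, and 0 had an unadjusted p under 0.05. Of all tested genes, edgeR called 0.174%, and 14.6% had an unadjusted p under 0.05. The widest value was that of asparagine-synthetase, at -0.23 ± 0.11 (adjusted p = 0.37, 95% interval -0.47 to 0.02). Its log2 difference was -0.14 when Snail guides were added to Twist guides and 0.08 when Snail guides alone were set against control guides. crc stood at -0.13 (-0.40 to 0.14) and Hsc70-3 at 0.10 (-0.16 to 0.36).

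The rest of the pathway was read from 6 lists, written from known roles with earlier results of these data in view, of which 76 of 84 genes were tested. In the 3 comparisons with control, 2 of their 228 tests passed, a share close to that of all tested genes (0.934% with Twist guides, 0.324% with Snail guides, 1.57% with both pools). Thor, the translation inhibitor 4E-BP and an ATF4 target in flies, rose with both pools to 68.8 and 78.6 CPM, against 51.2 and 52.1 CPM with control guides (log2 0.51 ± 0.10, adjusted p = 0.026). That call was kept by DESeq2 (adjusted p = 0.014) but lost in a fit of the 2 groups alone (0.093), without either Snail library (0.057 in each case), and without the first (0.068) or second (0.37) library of both pools. Thor stood at 0.13 for Twist guides and at 0.21 for Snail guides. CG11899 (Psat), the phosphoserine aminotransferase of serine synthesis, whose fall was known when the list was written, was at 21.0 and 20.1 CPM with Twist guides, against 35.4 and 27.0 CPM with control guides (-0.60 ± 0.13, adjusted p = 0.040). It was not called by DESeq2 (adjusted p = 0.093), or in a fit of the 2 groups alone (0.24). The edgeR call was also lost without the first control library (-0.39, adjusted p = 0.078), either Twist library (0.23 and 0.32), either Snail library (0.097 in each case) or either library of both pools (0.11 in each case).

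Among the 13 sensors and regulators, the stress kinases and Atf6 were singled out for their role after their values were seen. Against control, Ire1 was at 0.01 for Twist guides, -0.02 for Snail guides and, where both pools were given, 0.20 (adjusted p = 0.25), PEK at -0.01, -0.19 and -0.01, Gcn2 at 0.04, -0.15 and 0.09, and Atf6 at -0.18, -0.16 and -0.19, and none passed. The list's median was -0.01 for Twist guides, -0.03 for Snail guides and, where both pools were given, 0.06, with 0, 0 and 1 genes called.

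The 16 other ER chaperones and folding enzymes had medians of 0.06, 0.08 and 0.12 in the same order, where the medians of all tested genes were -0.01, 0.00 and -0.01. None of the 16 passed in any of the 3 comparisons in edgeR (4, 6 and 3 at an unadjusted p under 0.05, where 8.28%, 14% and 16.5% of all genes were). Their widest value with both pools was that of CG2918 (current symbol Grp170), an ER chaperone of the Hsp70 family, at 0.33 ± 0.08 (adjusted p = 0.057), named after its value was seen. Crc, taken as calreticulin, was at 0.05, 0.03 and 0.28 (adjusted p = 0.22 with both pools).

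The 10 genes of ER-associated degradation, which sends misfolded proteins back to the cytosol, had medians of -0.01, 0.05 and 0.10, with 4, 7 and 8 of 10 above 0. The 20 genes of ER entry and glycosylation, the steps before folding, had medians of 0.01, 0.03 and 0.00, and neither list held a called gene in edgeR (0, 0 and 1 at an unadjusted p under 0.05 in the first, 0, 0 and 4 in the second). The counts with both pools are near the 16.5% of all genes at that level.

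The 6 enzymes of serine, glycine and folate metabolism, several of them ATF4 targets in mammals, had a median of -0.13 for Twist guides against control. It was -0.24 for Snail guides and -0.41 where both pools were given. All 6 were below 0 in the last 2 comparisons, though the CG11899 call with Twist guides was the only one. At an unadjusted p under 0.05 there were 1, 2 and 3 of 6, where 8.28%, 14% and 16.5% of all genes were. The list was written with the fall of CG11899 known. With both pools, aay, the phosphoserine phosphatase, was at -0.66 ± 0.33 (adjusted p = 0.38) and CG11899 at -0.51 (adjusted p = 0.071). CG6287 (Phgdh), the first enzyme of serine synthesis, was at -0.50 (adjusted p = 0.064), the 3 values being named after they were seen. With Twist guides aay went the other way, at 0.47 ± 0.30 (adjusted p = 0.80), the only 1 of the 6 above 0 there. Its replicates lay far apart, at 22.2 and 36.2 CPM with Twist guides and 16.1 and 26.1 CPM with control guides. The 11 cytosolic and mitochondrial chaperones had medians of 0.06, 0.21 and -0.01, with none called (0, 3 and 0 at an unadjusted p under 0.05, where 8.28%, 14% and 16.5% of all genes were). Of these 11, 9, 11 and 5 were above 0.

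**Figure D5:**
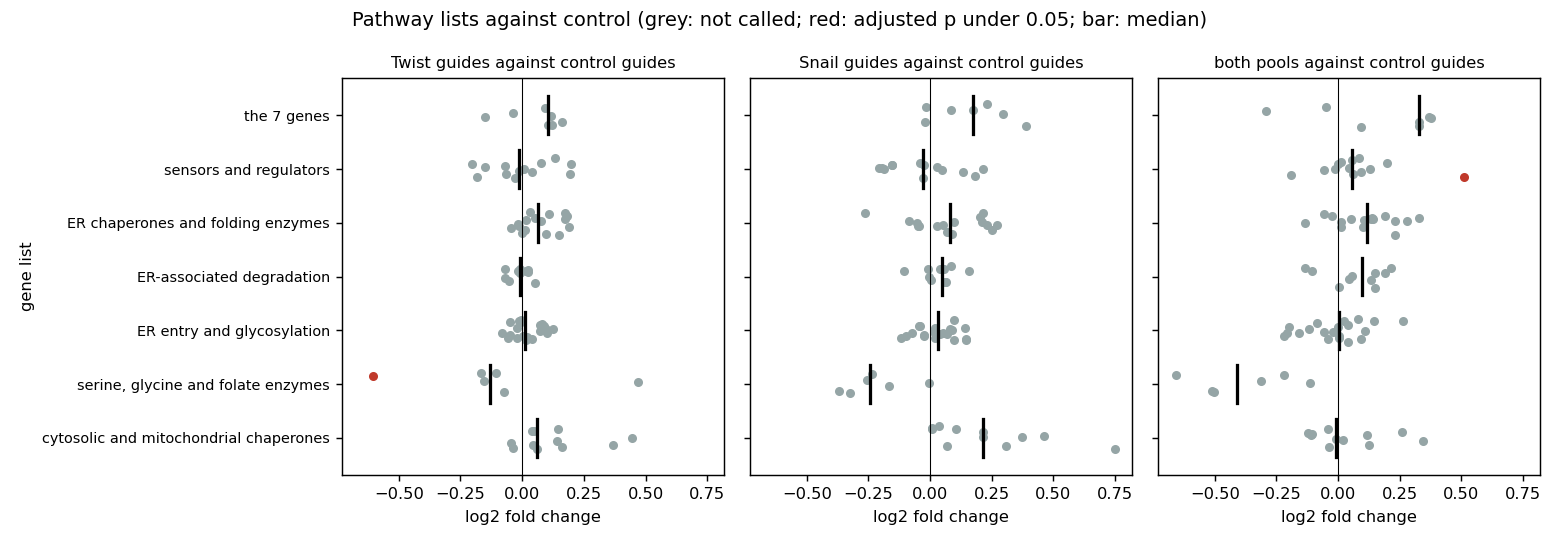
Log2 fold change against control guides (x axis) of the 7 genes and of 6 pathway lists (y axis; 1 point a gene, bars for medians) with Twist guides, Snail guides and both pools; red points have an adjusted p under 0.05. The red points are CG11899 with Twist guides and Thor with both pools, and the serine, glycine and folate enzymes have a median of -0.41 with both pools.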

How the data were processed

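The authors deposited raw counts, in 1 table of gene symbols for each library. TopHat2 (version 2), Bowtie2, HTSeq and DESeq are named in the submitters' processing notes, without role. Not given in the sources used here were the build, the annotation, strandedness and the handling of overlaps. Reads shared by overlapping genes could therefore be assigned in more than 1 way, as for Gp93 and CG4951, which share 101 exon bases on opposite strands, and for Pdi, which shares 501 with an antisense RNA.

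Symbols were matched to Ensembl 115 (BDGP6.54) for identifiers and lengths (10669 current, 3235 older, 257 unmatched; lengths for 98.3% of tested genes). Counts were tested with edgeR 4.0.16 in R 4.3.3: filterByExpr (minimum count 10; 8029 genes tested), TMM factors, a robust quasi-likelihood fit with the 4 groups over 8 libraries, and Benjamini-Hochberg adjustment at 0.05 over all tested genes within each of 7 contrasts. Adjusted p-values without a named tool are edgeR's. SE were log2 fold changes divided by the root of the F statistic. The distance of replicates used genes with at least 50 counts in a pair. The procedure was run on simulated counts for Twist guides against control only. Every group was given the same spread per gene, so the wider spread of the control replicates was not covered. Plots used Python 3.11.15 and matplotlib 3.10.9.

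The 7 genes and the lists were chosen with earlier results of these data known. Named genes are the 7, twi and sna, up to 4 called genes per list and comparison, and the 3 genes most like each of the 7. Outside that rule, Ire1, PEK, Gcn2, Atf6, CG2918, Crc, aay and CG6287 were named after their values were seen, and cell type markers serve as a check of the line. Alternatives were DESeq2 1.42.0 tests, its size factors, scaling by library size alone, a minimum of 1 CPM in 2 libraries or no filter, a replicate block, only the groups compared, a transcript length correction (lowess, span 0.3) and each library left out.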

Additional observations from a re-analysis of the deposited data

How the results depend on the processing

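Counts of called genes among the 7 moved as follows. They are given without the number called over all genes in the same setting, so they do not show a trait of the 7. Without a filter, adjusted p also fell outside the 7. It was 0.00032 for Thor (both pools against control) and 0.0010 for CG11899 (Twist guides against control), where the reported fit gave 0.026 and 0.040. Snail guides against control: 1 without a filter and 1 by DESeq2, with 0 to 3 when a library was left out. Both pools against control: 5 without a filter, 2 by DESeq2 and 2 with transcript length corrected, with 0 to 5 when a library was left out. Both pools against Twist guides: 2 with only the groups compared, and 0 to 3 with a library left out. Both pools against Snail guides: 2 with only the groups compared, 0 with the replicate number as a block (asparagine-synthetase at -0.38, adjusted p = 0.066), and 0 to 1 with a library left out. Twist guides against Snail guides: 1 with only the groups compared, and 0 to 2 with a library left out. Twist guides against control and the non-additive term kept a count of 0 in every setting run. A lone library left in a group took its spread from the other groups.

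No strong pairing by replicate number was seen in the counts: the difference between replicates 1 and 2 had correlations across genes of -0.15 to 0.14 between groups. These values do not show how the samples were handled. The block changed no other call among the 7. Of 777 values of single genes under the alternatives, 701 kept direction and side of the threshold, 36 passed it newly, 7 lost it and 33 turned sign. None of the 33 was called in either fit, and the reported values were at most 0.11 in size. For the non-additive term, Pdi was -0.031 with library size alone and CG10420 was 0.0081 with transcript length corrected. With a library left out, the ranges of values that turned sign were, with Twist guides against control, -0.020 to 0.24 for Xbp1, -0.0058 to 0.18 for Hsc70-3 and -0.086 to 0.013 for Pdi. With Snail guides against control they were -0.070 to 0.029 for Pdi and -0.12 to 0.092 for CG10420, and with both pools against control -0.011 to 0.20 for CG10420. For both pools against Twist guides they were -0.044 to 0.010 for Pdi and -0.078 to 0.017 for CG10420. For both pools against Snail guides they were -0.044 to 0.024 for crc, -0.036 to 0.10 for Xbp1 and -0.058 to 0.010 for Pdi. For Twist guides against Snail guides they were -0.18 to 0.011 for Hsc70-3, -0.14 to 0.0064 for Gp93 and -0.041 to 0.027 for Pdi. For the non-additive term they were -0.21 to 0.050 for Xbp1, -0.17 to 0.030 for Gp93, -0.042 to 0.057 for Pdi and -0.12 to 0.089 for CG10420.

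With 560 to 23787 counts per gene and library, counting error is small for these genes, and 2 libraries a group limit the precision. The cause of the changes between settings was not tested.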

Other observations

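The genes whose log2 CPM ran most like each of the 7 across the 8 libraries were listed as a description, among 7682 others with a mean of at least 1 CPM. The libraries share their groups and the same scaling, and among so many genes high values are found for most patterns. For crc they were CG9335 (Pearson's r = 0.99), CG4239 (0.98) and CG8801 (0.97), for Xbp1 CG2528 (0.98), RpL12 (0.98) and CG15735 (0.97), and for Hsc70-3 numb (0.98), CG8405 (0.98) and ATPCL (0.98). For Gp93 they were HLH106 (0.98), Sep4 (0.97) and cdc23 (0.97), for Pdi CG12773 (0.97), alphaTub84D (0.95) and CG12702 (0.95), for CG10420 CG31431 (0.93), Rhp (0.93) and bab2 (0.92), and for asparagine-synthetase CG9662 (0.98), CG11737 (0.98) and CG6045 (0.95). None of the 7 was among the 3 nearest of another. Between crc, Xbp1, Hsc70-3 and Gp93 the values ran from 0.81 (Xbp1 and Hsc70-3) to 0.91 (crc and Xbp1). Between asparagine-synthetase and these genes the values ran from -0.61 (Hsc70-3) to -0.16 (crc). The lowest value of any pair was that of Pdi and CG10420, at -0.89, although the highest library of Pdi was only 1.09 times its lowest. Replicates of the same group also moved in opposite directions: under control guides Pdi was at 677 and 633 CPM and CG10420 at 51.3 and 59.5.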
